A study of Mus musculus with 6 samples.

Results

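Chemokines of the CXC and CX3C families and their receptors were followed in the cells of the obstructed mouse kidney. The genes were chosen by symbol, 10 of the 31276 genes measured: the ligands Cxcl1, Cxcl2, Cxcl9, Cxcl10, Cxcl12, Cxcl14 and Cxcl16 and the receptors Cxcr4, Cxcr6 and Cx3cr1. The kidneys came from C57BL/6 mice at 7 days of ureteral obstruction, in which a tied ureter dams back urine until the kidney inflames and scars. All mice had the operation. Of these, 3 had been given the compound SH045, and 3 the vehicle alone, in a study that its title places on inhibition of the cation channel TRPC6. Each library held dissociated cells of 1 kidney, read as unique molecular identifiers (UMIs) on barcoded beads, with 6000 cells targeted. The labels name no sex, age or dose, and unobstructed kidneys were not analysed here. Levels are CPM, UMI counts of a gene scaled to the total of a library or of 1 cell class of a library, and n is the number of mice.

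Chemokines are small secreted proteins that draw leukocytes along a gradient toward their source, and the CXC and CX3C names refer to the spacing of the first cysteines. Cxcl1 and Cxcl2 attract neutrophils through Cxcr2, Cxcl9 and Cxcl10 attract activated T cells through Cxcr3, and Cxcl12 holds and homes cells bearing Cxcr4. Cxcl16 is made as a membrane protein with a chemokine head, binds Cxcr6 and also takes up oxidised lipid, while Cx3cr1, the receptor of fractalkine (Cx3cl1), marks resident and patrolling phagocytes of the kidney.

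Of the ligands, 4 lie as neighbouring pairs on chromosome 5 of GRCm38 (mm10). Cxcl1 (ENSMUSG00000029380, 90891241 to 90893115) and Cxcl2 (ENSMUSG00000058427, 90903871 to 90905938) are on the plus strand, and Cxcl9 (ENSMUSG00000029417, 92321347 to 92328079) and Cxcl10 (ENSMUSG00000034855, 92346638 to 92348889) on the minus strand. Their upstream sequences are shown because the members of each pair were found together in part of the cells, as described further on. RefSeq (GRCm38.p6) gave a promoter for 9 of the 10 genes. The stretches are the 250 bases before the RefSeq start, at chr5:90890995-90891244 for Cxcl1, chr5:90903649-90903898 for Cxcl2, chr5:92328080-92328329 for Cxcl9 and chr5:92348890-92349139 for Cxcl10, each 5′ to 3′ on the strand of the gene. Capitals mark matches on either strand to the NF-kB consensus or to the interferon-stimulated response element, searched as GAAA, any 2 bases and GAAA.
Cxcl1: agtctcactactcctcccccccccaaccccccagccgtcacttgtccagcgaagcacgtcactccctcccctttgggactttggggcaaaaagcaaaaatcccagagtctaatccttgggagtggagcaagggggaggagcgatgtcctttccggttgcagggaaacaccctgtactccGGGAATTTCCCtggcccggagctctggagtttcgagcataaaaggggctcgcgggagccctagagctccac
Cxcl2: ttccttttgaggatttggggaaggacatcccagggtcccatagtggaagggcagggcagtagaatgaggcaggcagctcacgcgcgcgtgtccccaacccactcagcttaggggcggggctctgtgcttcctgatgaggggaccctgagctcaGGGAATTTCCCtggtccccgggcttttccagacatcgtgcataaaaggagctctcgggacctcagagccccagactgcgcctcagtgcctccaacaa
Cxcl9: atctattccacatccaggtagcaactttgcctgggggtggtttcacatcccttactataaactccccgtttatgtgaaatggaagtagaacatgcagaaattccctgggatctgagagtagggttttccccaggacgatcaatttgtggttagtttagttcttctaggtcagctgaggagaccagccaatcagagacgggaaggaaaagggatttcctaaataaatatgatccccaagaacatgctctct
Cxcl10: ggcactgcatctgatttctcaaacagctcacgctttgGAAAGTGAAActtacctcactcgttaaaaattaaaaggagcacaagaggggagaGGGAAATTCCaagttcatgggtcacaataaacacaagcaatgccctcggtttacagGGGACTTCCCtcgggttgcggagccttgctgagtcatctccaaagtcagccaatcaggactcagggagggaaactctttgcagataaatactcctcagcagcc

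Cxcl1 and Cxcl2 each held 2 overlapping matches to the NF-kB consensus, and Cxcl10 held 2 separate ones. The consensus occurred in 3 of the 9 promoters and in 4.51% of 32851 promoter windows of 300 bases (250 before and 50 after the start). The response element occurred in Cxcl10 and Cxcl14 and in 3.44% of all windows. The interferon-gamma activated site TTCNNNGAA occurred in Cxcl14 and in 8.3% of windows, and none of the 3 motifs was found in the window of Cxcl9. A match describes these letters only.

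The deposited matrices held between 21186872 and 32256602 UMIs per library, and 23578 of 25978 barcodes were kept. Barcodes left out for over 50% mitochondrially encoded UMIs were 10.3% to 16.5% of the SH045 libraries and 3.56% to 5.29% of the Vehicle libraries, and 209 barcode sequences occurred in more than 1 library. Cells were given a class from marker genes, which left 7.69% without one, and 11 classes had at least 20 cells in every library. Of their own markers, all 7 of fibroblasts and all 6 of macrophages and of T cells were in over 10% of the cells of their class. In distal convoluted tubule these were 3 of 4 and in intercalated cells 6 of 7. The same markers set the classes, so their detection is no separate check. Fibroblasts were scarce in the Vehicle libraries (22, 29 and 28 cells) compared with 128, 160 and 88 in the SH045 libraries, which limits what their sums can show. Classes were rebuilt here and may differ from those of the study.

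**Figure D1:**
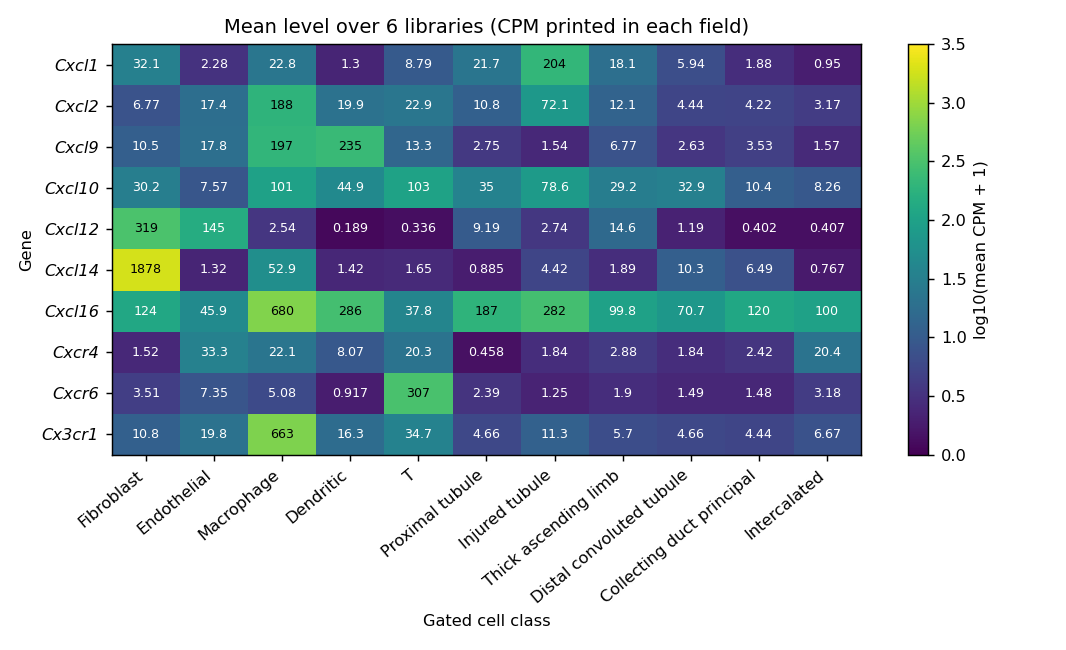
Mean level over the 6 libraries (CPM, printed in each field and coloured as log10 of CPM + 1) of the 10 genes, in rows, in the 11 gated classes, in columns. Cxcl12 and Cxcl14 are highest in fibroblasts, Cxcl16 and Cx3cr1 in macrophages, Cxcr6 in T cells and Cxcl1 in injured tubule.

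Across the classes, the genes differed in their main site. Injured tubule cells, named from Havcr1 and Sox9 among others, gave 57.7% of all 4388 UMIs of Cxcl1, macrophages 70.4% of the 10636 UMIs of Cxcl2 and 71.8% of the 10052 UMIs of Cxcl9, and fibroblasts 68.0% of the 2275 UMIs of Cxcl12 and 59.3% of the 7091 UMIs of Cxcl14. These shares pool all libraries, and those of fibroblasts rest on the SH045 libraries, where that class was larger. For Cxcl12, proximal tubule gave the most UMIs in Vehicle 1 (38.1%) and endothelium in Vehicle 2 (31.7%). Macrophages also gave 66.8% of the 42946 UMIs of Cxcl16 and 95.1% of the 28101 UMIs of Cx3cr1. T cells gave 74.5% of the 1760 UMIs of Cxcr6. Cxcl10 and Cxcr4 were spread more widely, with macrophages giving 51.2% of the 8331 UMIs of Cxcl10 and 50.2% of the 1645 UMIs of Cxcr4. In the order of classes by mean CPM, the top class stood apart from the next one in every library for Cxcl1, Cxcl14, Cxcl16, Cxcr6 and Cx3cr1, and overlapped with it for the other 5 genes.

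The compound and vehicle groups were compared with edgeR on summed UMIs, with p-values adjusted over all genes of a class. Of the 110 pairs of gene and class, 51 passed the filter on low counts, and 22 of these had a positive and 29 a negative log2 difference. Only 1 pair passed the test, Cx3cr1 in macrophages, which was higher with SH045. That is 1 of 51 pairs, where 2.43% of all 94521 pairs of gene and class passed in either direction and 1.27% passed as higher and 1.16% as lower. By class, the share of all tested genes that passed was 10.8% in macrophages, 3.48% in collecting duct principal cells, 2.70% in injured tubule, 1.73% in intercalated cells and 1.03% in T cells. It was 0.742% in dendritic cells, 0.676% in endothelium, 0.201% in distal convoluted tubule, 0.0648% in thick ascending limb, 0.0631% in fibroblasts and 0 in proximal tubule, where 1255 genes had an unadjusted p under 0.05. Unadjusted p-values under 0.05 were found for 15 of the 51 pairs and for 16.7% of all pairs. The libraries of the groups did not overlap in 11 of the 51 pairs. Among all tested genes that share was 37.2% in macrophages, 23.4% in dendritic cells, 28.1% in injured tubule, 24.7% for collecting duct principal cells, 21.8% in intercalated cells and 20.2% in proximal tubule. It was 19.6% in distal convoluted tubule, 18.7% in T cells, 18.5% in thick ascending limb, 18.3% in endothelium and 15.3% in fibroblasts. In sums over whole libraries 0 of the 10 genes passed in edgeR, with 4.31% of all 16532 genes passing. An unadjusted p under 0.05 was found for 2 of the 10 genes and 26.7% of all genes, and 2 of the 10 genes and 10.9% of all genes passed with DESeq2.

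**Figure D2:**
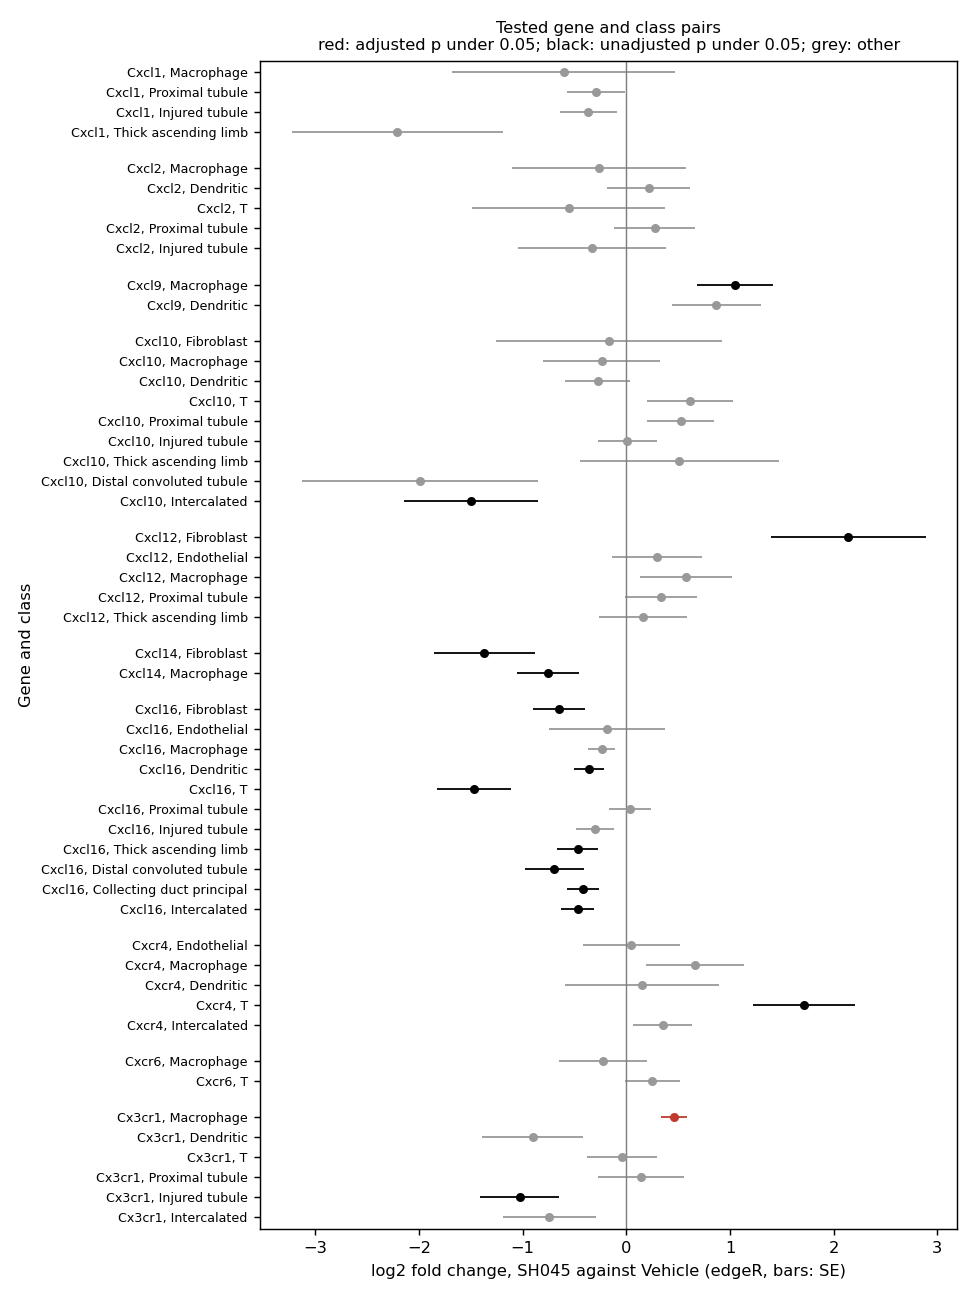
Log2 fold change of SH045 against Vehicle with its SE (edgeR) for the 51 tested pairs of gene and class. The pair past the adjusted threshold is Cx3cr1 in macrophages at 0.46, and 10 of the 11 Cxcl16 values lie under 0.

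Among the neutrophil-attracting ligands, Cxcl1 had its highest level in injured tubule. There it was 213, 133 and 212 CPM in SH045 1, 2 and 3 and 149, 290 and 230 CPM in Vehicle 1, 2 and 3, so the groups overlapped. A Cxcl1 UMI was seen in 28.9% of 1237 injured tubule cells at a median depth of 7083 UMIs, compared with 0.70% of dendritic cells at 5056 UMIs, and in 16.8% and 0.21% after thinning each cell to 2000 UMIs. The difference between groups was -0.37 ± 0.27 on the log2 scale (SE, n = 3 each, edgeR adjusted p = 0.480). All 4 tested classes had a negative value for Cxcl1, from -2.21 to -0.29, and none passed. The thick ascending limb value of -2.21 rested on 151 UMIs.

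Cxcl2 was highest, among tested classes, in macrophages. Its levels there were 349, 142 and 63.3 CPM with SH045 and 131, 344 and 98.6 CPM with Vehicle. SH045 1 and Vehicle 2 stood above the other 4 libraries, and the same 2 libraries were highest for Cxcl1 in macrophages, at 43.4 and 51.1 CPM against 4.96 to 14.5 CPM. These 2 libraries also had the largest shares of macrophage cluster 12, a cluster led by Ppp1r15a, Ccl3, Egr1 and Fos: 36.0% and 41.7% of macrophages against 10.9% to 22.4% in the others. Within that cluster Cxcl2 was 445, 312 and 306 CPM with SH045 and 292, 423 and 187 CPM with Vehicle, and its part in the spread of Cxcl2 was not tested. The difference between groups was -0.26 ± 0.84 (edgeR adjusted p = 0.876). Granulocytes, which were too few to test, had a Cxcl2 UMI in 50 of 91 cells (54.9%).

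Both neutrophil attractants were found together in cells. In injured tubule, a Cxcl2 UMI was present in 37.0% of the cells with Cxcl1 and in 4.09% of the cells without it. In macrophages the shares were 65.5% and 15.4%. These shares are descriptions over cells, which were not matched for depth.

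The T-cell attractants Cxcl9 and Cxcl10 differed in where they were found. Cxcl9, an interferon-gamma-induced ligand, was found mainly in dendritic cells and macrophages, with means of 235 and 197 CPM and a mean of at most 17.8 CPM in any other tested class. Cxcl10 was spread over T cells (103 CPM), macrophages (101 CPM), injured tubule (78.6 CPM) and the other classes, and the libraries of each class overlapped with those of the next in the order. Within macrophages both were highest in cluster 6, led by Ifit3, Cxcl11 and Rsad2. A Cxcl10 UMI was present in 29.8% of macrophages with a Cxcl9 UMI and in 11.6% of those without. Here too cells were pooled from all libraries and not matched for depth.

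In macrophages, Cxcl9 was 424, 264 and 146 CPM with SH045 and 115, 117 and 119 CPM with Vehicle. The 3 Vehicle libraries lay close together, and all SH045 libraries lay above them. Among the 12136 genes tested in macrophages, 3505 had all SH045 libraries above and 1015 had all under the Vehicle libraries, together 37.2%. The difference of 1.05 ± 0.37 on the log2 scale did not pass (edgeR adjusted p = 0.137). Without SH045 3 it was 1.36 with an adjusted p of 0.00223, in a range from 0.00223 to 0.312 over 17 alternatives. In the interferon-led cluster 6 the levels were 2276, 1069 and 802 CPM with SH045 and 595, 787 and 633 CPM with Vehicle (log2 difference 0.90 ± 0.44, edgeR adjusted p = 0.472). At a fixed mix of the 6 macrophage clusters Cxcl9 was 279 ± 184 CPM against 125 ± 15.9 CPM (SD, n = 3, exact permutation p = 0.2). Dendritic cells gave 308, 466 and 163 CPM with SH045 and 159, 124 and 189 CPM with Vehicle, which overlapped (0.87 ± 0.43, edgeR adjusted p = 0.419).

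Cxcl10 was tested in 9 classes and passed in none, with 4 positive and 5 negative values. In macrophages it was 132, 102 and 63.3 CPM with SH045 and 46.2, 169 and 92.8 CPM with Vehicle. T cells gave 102, 131 and 148 CPM against 25.1, 111 and 102 CPM, and proximal tubule 37.2, 39.8 and 50.3 CPM against 13.3, 36.1 and 33.3 CPM. The last groups did not overlap, as for 20.2% of genes in proximal tubule (log2 difference 0.53 ± 0.32, edgeR adjusted p = 0.541). In intercalated cells Vehicle 2 was high, at 23.9 CPM against 1.74 to 7.68 CPM in the other 5 libraries. Without Vehicle 2 the intercalated value moved from -1.50 to -0.18. Cxcl10 overlaps Art3 on the other strand, and the labels do not state the strand used in counting.

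The stromal ligands Cxcl12 and Cxcl14 both had most of their pooled UMIs in fibroblasts. For neither ligand were fibroblasts the largest source in every Vehicle library. Within fibroblasts the 2 ligands differed between the groups in opposite directions, though neither passed the test. Cxcl12, which retains and recruits Cxcr4-bearing cells, was 700, 664 and 174 CPM in the fibroblasts of SH045 1, 2 and 3 and 145, 47.0 and 185 CPM in those of Vehicle 1, 2 and 3. SH045 1 and 2 were high, and SH045 3 lay among the Vehicle libraries. The difference was 2.14 ± 0.75 on the log2 scale (edgeR adjusted p = 0.553), with a background of 0.0631% of genes passing in fibroblasts. Without SH045 3 the adjusted p was 0.00365, and with DESeq2 it was 0.0265, in a range up to 0.752. More genes passed in fibroblasts in these 2 settings, 69 of 4219 without SH045 3 and 35 of 4290 with DESeq2. The summed level of the 7 fibroblast markers was likewise higher in SH045 1 and 2 than in the other 4 libraries, with 42150, 48020 and 26770 CPM in SH045 and 23500, 18570 and 26010 CPM in Vehicle fibroblasts. The part of this difference among the fibroblasts in the result was not tested.

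Cxcl14, a ligand of epithelia and stroma with no agreed receptor, was 1103, 732 and 1244 CPM in SH045 fibroblasts and 2151, 4696 and 1344 CPM in Vehicle fibroblasts. All Vehicle libraries lay above all SH045 libraries, but Vehicle 3 exceeded SH045 3 only narrowly. The same order was found for 570 of 6338 genes in fibroblasts, and 15.3% did not overlap in either direction. The difference was -1.37 ± 0.49 (edgeR adjusted p = 0.553), and without Vehicle 2 it was -0.66. Of 455 fibroblasts, 134 had UMIs of both ligands, 82 of Cxcl12 alone, 168 of Cxcl14 alone and 71 of neither. Cxcl14 was seen in 62.0% of fibroblasts with Cxcl12 and in 70.3% of those without it, pooled over all libraries.

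**Figure D3:**
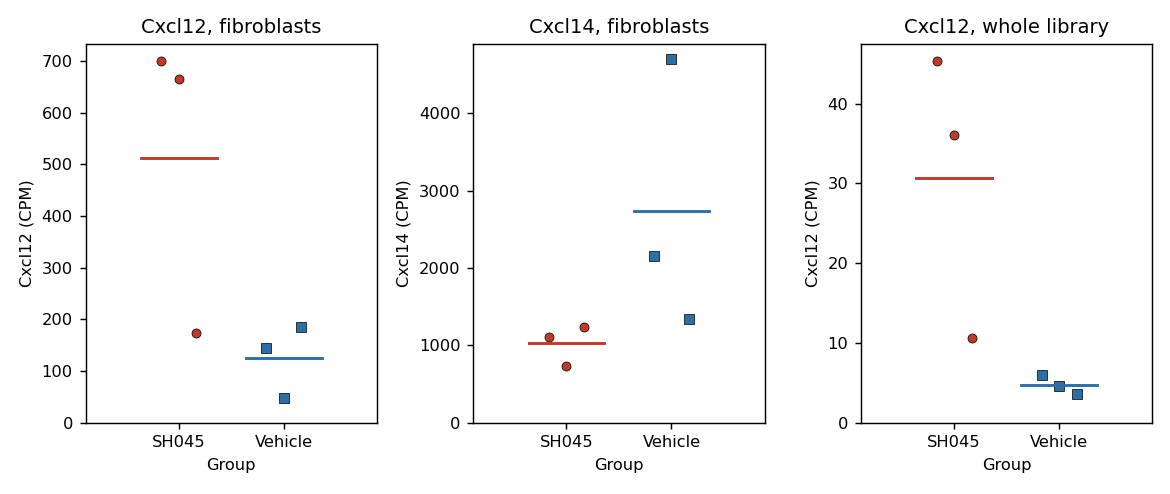
Cxcl12 and Cxcl14 in fibroblasts and Cxcl12 in whole libraries (CPM); points are libraries, bars group means, n = 3 mice each. In fibroblasts, SH045 3 lies at 174 CPM of Cxcl12 and Vehicle 2 at 4696 CPM of Cxcl14, and whole-library Cxcl12 lies between 10.7 and 45.4 CPM with SH045 and between 3.55 and 6.01 CPM with Vehicle.

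Over whole libraries, Cxcl12 was 45.4, 36.0 and 10.7 CPM with SH045 and 6.01, 4.66 and 3.55 CPM with Vehicle. The groups did not overlap, as for 39.7% of all genes in these sums. The difference was 2.45 ± 0.51 on the log2 scale (edgeR adjusted p = 0.0508). It passed in 6 of 17 alternatives, with adjusted p-values from 2.36e-06 to 0.169. Among these, Leiden clusters and a stricter marker rule change only class labels, so for whole libraries they repeated the reported fit. Fibroblasts were 3.40 ± 0.85% of SH045 and 0.63 ± 0.09% of Vehicle cells, and endothelial cells, the class with the next highest level, 3.02 ± 0.62% and 0.86 ± 0.13% (SD, n = 3, exact permutation p = 0.1 each, the smallest that 3 against 3 allows). Fibroblasts gave 57.6% to 79.8% of the Cxcl12 UMIs of the SH045 libraries and 6.90% to 38.7% of those of the Vehicle libraries. In these sums, more cells of a class and more RNA per cell cannot be told apart. Endothelial Cxcl12 itself was 197, 216 and 76.3 CPM with SH045 and 132, 183 and 66.6 CPM with Vehicle, and the groups overlapped (0.30 ± 0.43, edgeR adjusted p = 0.829).

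Macrophages were a further source of Cxcl14. With SH045 they gave 14.1%, 24.5% and 19.3% of its UMIs and fibroblasts 82.5%, 66.3% and 71.6%. With Vehicle they gave 50.6%, 40.5% and 57.5% and fibroblasts 41.3%, 52.0% and 28.8%. Macrophages thus gave more than fibroblasts in Vehicle 1 and 3. A UMI was seen in 9.95% of macrophages (median depth 3558 UMIs), compared with 0.73% of T cells (3537 UMIs). The level was 47.1, 49.3 and 31.2 CPM with SH045 and 48.7, 90.8 and 50.4 CPM with Vehicle, and the groups overlapped. The difference was -0.76 ± 0.30 (edgeR adjusted p = 0.158, passing in 3 of 17 alternatives, from 5.82e-05 to 0.386). Cluster 4, led by Ear2, Retnla, Fn1 and Mmp12, had the highest share of Cxcl14-positive cells of the 6 macrophage clusters tested, at 27.8%. It made up 4.60 ± 2.92% of the macrophages with SH045 and 13.5 ± 2.90% with Vehicle (SD, n = 3), without overlap. At a fixed mix of clusters Cxcl14 was 44.2 ± 6.59 CPM against 58.1 ± 15.4 CPM, a ratio of 0.761 (exact permutation p = 0.2).

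Cxcl16, the membrane-bound ligand of Cxcr6, was the most widely detected of the genes. It was seen in 81.5% of macrophages, 60.2% of injured tubule, 52.4% of dendritic cells and between 34.5% and 48.0% of the cells of the other tubule classes. In T cells, at 8.03%, it was lowest. The fits gave a negative difference in 10 of 11 classes, and none passed. Unadjusted p-values under 0.05 were found in 7 classes, namely fibroblasts, dendritic cells, T cells, thick ascending limb, distal convoluted tubule, collecting duct principal and intercalated cells. In these classes such p-values were found for between 8.71% and 19.4% of all genes. The classes come from the same 6 libraries and do not count as separate replicates.

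In intercalated cells Cxcl16 was 93.0, 78.5 and 85.5 CPM with SH045 and 122, 120 and 104 CPM with Vehicle. All SH045 libraries lay under all Vehicle libraries there, as they did in fibroblasts, T cells, thick ascending limb and collecting duct principal cells. In these 5 classes between 15.3% and 24.7% of all tested genes did not overlap between the groups. The intercalated difference was -0.47 ± 0.16 (edgeR adjusted p = 0.103), and that in collecting duct principal cells, at 118, 89.4 and 108 CPM against 138, 140 and 130 CPM, was -0.42 ± 0.16 (edgeR adjusted p = 0.143). In macrophages the groups overlapped, with 692, 649 and 657 CPM against 761, 667 and 653 CPM (-0.24 ± 0.13, edgeR adjusted p = 0.244). At a fixed mix of the 6 macrophage clusters the levels were 665, 635 and 644 CPM with SH045 and 819, 741 and 733 CPM with Vehicle, which did not overlap (ratio 0.847, exact permutation p = 0.1). Scaling by total counts, which moved the median log2 difference of all genes in macrophages to 0.18, left 10 of the 11 Cxcl16 values negative.

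**Figure D4:**
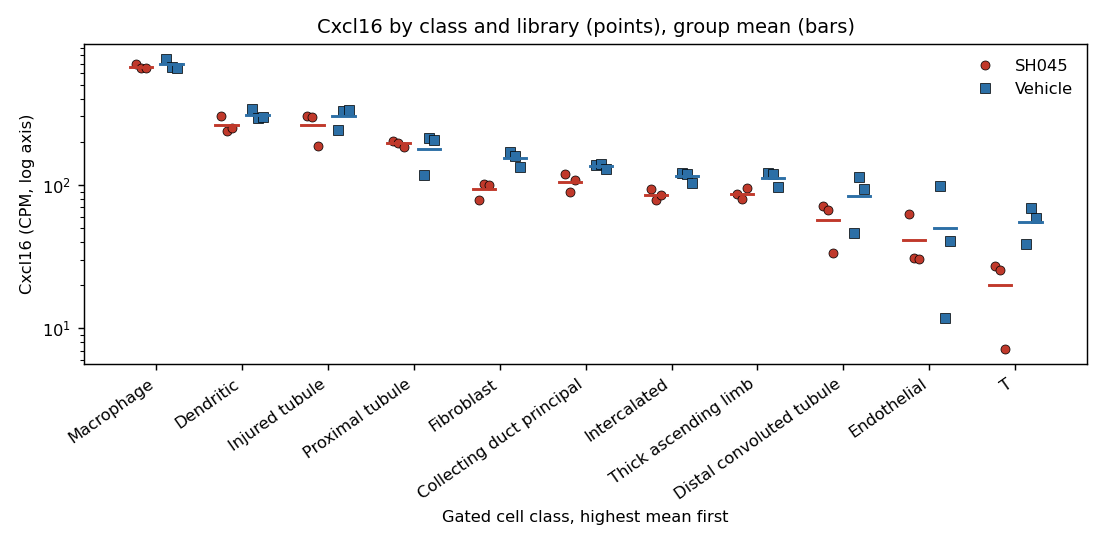
Cxcl16 (CPM, log axis) by gated class, ordered by mean level; points are libraries, bars group means, n = 3 mice each. SH045 libraries lie under Vehicle libraries without overlap in fibroblasts, T cells, thick ascending limb, collecting duct principal and intercalated cells, and overlap with them in the other 6 classes.

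The largest difference of Cxcl16 was that in T cells, at 27.2, 25.6 and 7.16 CPM with SH045 and 38.7, 68.9 and 58.9 CPM with Vehicle (-1.47 ± 0.35, edgeR adjusted p = 0.0501). It passed in 4 of 17 alternatives, and with T cells taken from Leiden clusters it was -0.47 (adjusted p = 0.342, in a range from 0.00215). The 6 macrophage markers moved the same way in T cells, with a summed level of 408, 328 and 245 CPM with SH045 and 717, 451 and 798 CPM with Vehicle, and 3 of them were seen in over 10% of T cells. Their part in the difference was not tested. Per 100 UMIs of these markers, Cxcl16 had between 2.92 and 15.3 UMIs in T cells and between 3.30 and 4.19 UMIs in macrophages. In 9 of the 10 other classes every library lay above the macrophage values, with 38.9 to 90.9 UMIs in intercalated cells. Cxcl16 overlaps Zmynd15 on the other strand.

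Of the receptors, Cxcr4, which binds Cxcl12, had low levels throughout. Its highest mean among the tested classes was in endothelium, with 38.3, 28.6 and 34.9 CPM with SH045 and 23.0, 23.8 and 51.2 CPM with Vehicle, and all 5 tested classes had a positive difference, from 0.05 to 1.71. T cells gave 52.5, 17.6 and 25.8 CPM with SH045 and 2.28, 7.48 and 16.0 CPM with Vehicle. The T-cell groups did not overlap, as for 18.7% of genes in T cells, though SH045 2 and Vehicle 3 lay close together. The difference of 1.71 ± 0.49 did not pass (edgeR adjusted p = 0.120, from 0.00726 to 0.469 over the alternatives) and rested on 103 UMIs. In macrophages SH045 1 was high at 52.1 CPM, with 13.3 to 18.8 CPM in the other 5 libraries (0.66 ± 0.48, edgeR adjusted p = 0.428). Among the classes too small to test, B cells (17 of 85 cells), granulocytes (18 of 91) and monocytes (49 of 313) had a Cxcr4 UMI most often.

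Cxcr6, the receptor of Cxcl16 on activated and tissue-resident T cells, was found in 50.5% of 959 T cells (median depth 3537 UMIs) and in 1.26% of macrophages (3558 UMIs). Its levels in T cells were 321, 351 and 319 CPM with SH045 and 430, 180 and 242 CPM with Vehicle. The SH045 libraries lay close together and within the range of the Vehicle libraries (0.25 ± 0.26, edgeR adjusted p = 0.731). A Cxcr6 UMI was seen in 58.3% of T cells with a Cd8a UMI and in 47.5% of those without, and in 46.1% of those with a Cd4 UMI and 52.1% of those without. NK cells, too few to test, had it in 10 of 134 cells. Cxcr6 overlaps Fyco1 on the other strand.

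Cx3cr1 was the gene that passed. In macrophages it was 886, 716 and 822 CPM in SH045 1, 2 and 3 and 536, 487 and 529 CPM in Vehicle 1, 2 and 3, or 808 ± 85.7 against 518 ± 26.4 CPM (SD, n = 3). The lowest SH045 library lay well above the highest Vehicle library. The difference was 0.46 ± 0.12 on the log2 scale (edgeR adjusted p = 0.0315), in a class where 10.8% of 12136 genes passed and 5.72% passed as higher. Of the 10 genes, all were tested in macrophages, 1 passed, 4 had a positive and 6 a negative value, and their median was -0.23 beside 0.01 over all genes.

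The direction of the Cx3cr1 difference was the same in all 17 alternatives, and 9 of them passed, with adjusted p-values from 0.00286 to 0.154. The call was lost without SH045 1 (adjusted p = 0.0648), SH045 3 (0.109), Vehicle 1 (0.0672), Vehicle 2 (0.154) or Vehicle 3 (0.0669), and held without SH045 2 (0.0317). Log2 differences in macrophages correlated with transcript length over genes (Spearman 0.46, a description over 12129 genes, which are not independent), and with that trend taken out the value was 0.32 (adjusted p = 0.109).

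By macrophage cluster, Cx3cr1 was lowest in cluster 4, the one led by Ear2 and Retnla, where it was 150, 171 and 196 CPM with SH045 and 137, 75.9 and 93.8 CPM with Vehicle. Cluster 3, the largest with 3057 cells, gave 1182, 899 and 862 CPM against 742, 637 and 701 CPM. The leading genes of cluster 3 begin with the haemoglobin genes Hba-a1, Hba-a2 and Hbb-bs, which macrophages are not known to make. Groups did not overlap in clusters 3, 4, 6, 11 and 12 and overlapped in cluster 5, led by Saa3, Cbr2 and F13a1. Among all tested genes, 27.0%, 23.3%, 23.1%, 20.6%, 19.4% and 23.1% did not overlap in clusters 3, 4, 5, 6, 11 and 12. The share of genes that passed was 1.40%, 0.128%, 0.705%, 0.367%, 0.737% and 0.239% within clusters 3, 4, 5, 6, 11 and 12. Cx3cr1 passed in none of the 6 in edgeR, with log2 differences of 0.34 ± 0.14 in cluster 3 (edgeR adjusted p = 0.161) and 0.68 ± 0.20 in cluster 4 (edgeR adjusted p = 0.134). Since cluster 4 was a smaller part of the SH045 macrophages, a level was also computed at a fixed mix of clusters. It was 863, 716 and 739 CPM with SH045 and 592, 558 and 611 CPM with Vehicle, a ratio of 1.32 (exact permutation p = 0.1, the smallest possible). On the log2 scale that ratio is 0.40. CPM are scaled by total counts, and with that scaling the edgeR difference of the whole class was 0.64. The reported 0.46 uses another scaling and is not comparable with the fixed-mix ratio.

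**Figure D5:**
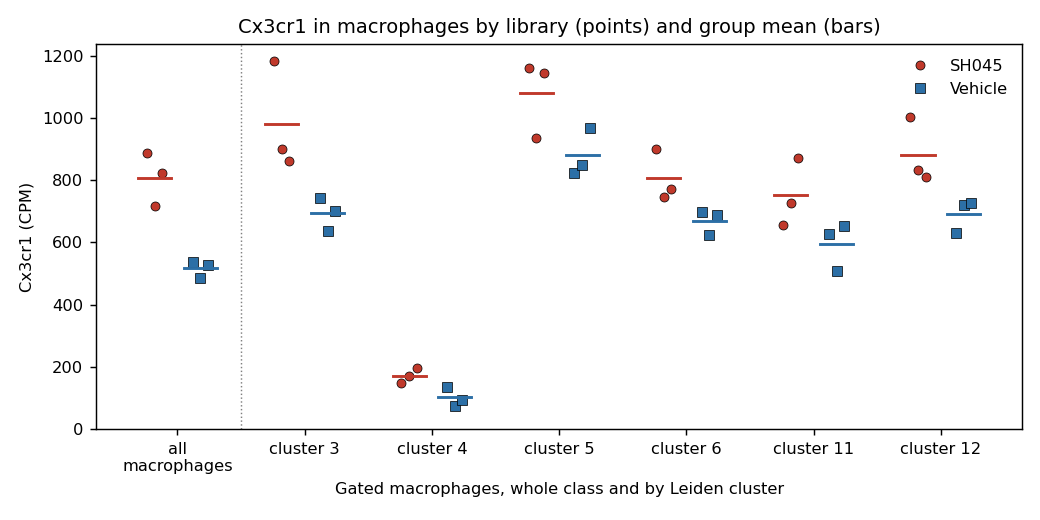
Cx3cr1 (CPM) in all gated macrophages and in 6 Leiden clusters of them; points are libraries, bars group means, n = 3 mice each. All SH045 libraries lie above all Vehicle libraries in the whole class (716 CPM or more against 536 CPM or less) and in each cluster shown except cluster 5.

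Outside macrophages Cx3cr1 was at most 48.9 CPM in any library of a tested class. Per 100 UMIs of the macrophage markers it had between 2.92 and 5.14 UMIs in macrophages, and in 7 of the 10 other classes the median library was at or under the highest of these. In injured tubule it was 10.7, 2.68 and 9.91 CPM with SH045 and 10.7, 16.0 and 17.7 CPM with Vehicle (-1.03 ± 0.38, edgeR adjusted p = 0.132), with macrophage markers there at 205, 67.6 and 173 CPM against 197, 156 and 203 CPM. The part of the latter was not tested. Over whole libraries Cx3cr1 was 196, 176 and 322 CPM with SH045 and 193, 142 and 224 CPM with Vehicle, and the groups overlapped (0.08 ± 0.27, edgeR adjusted p = 0.881). Macrophages themselves were 39.4 ± 10.3% of SH045 and 45.4 ± 6.34% of Vehicle cells (exact permutation p = 0.4). The GENCODE model of Cx3cr1 (ENSMUSG00000052336, chromosome 9, 119901616 to 120069879, minus strand) runs through Gorasp1, Csrnp1 and Xirp1 on the same strand, whereas RefSeq places the gene at 120048683 to 120068296.

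A joint fit of macrophages with each other class tested whether a difference was unlike that in macrophages. The low-count filter covered both classes together, so a gene could enter on its macrophage counts alone. Some pairs therefore rested on few UMIs in the other class, such as Cxcl1 in endothelium with 7 UMIs. Of 95 pairs of gene and class, 0 passed in edgeR, with 17, that one among them, at an unadjusted p under 0.05. The share of all genes under that limit was not computed for these fits, so the 17 cannot be read as an excess. The share of all genes that passed was 1.59% for collecting duct principal cells, 0.674% for intercalated cells, 0.597% for dendritic cells, 0.538% for T cells and 0.428% for fibroblasts. It was 0.181% for distal convoluted tubule, 0.151% for thick ascending limb, 0.0990% for injured tubule, 0.0676% for endothelium and 0.0230% for proximal tubule. The Cx3cr1 difference in injured tubule was 1.50 ± 0.36 lower on the log2 scale than in macrophages (edgeR adjusted p = 0.278), and that in intercalated cells 1.21 ± 0.35 lower (edgeR adjusted p = 0.157). Leaving out any 1 library gave between 1 and 4 passing pairs, with between 0.259% and 0.526% of all genes passing. With all 6 libraries the rise of Cx3cr1 was not shown to differ between macrophages and another class.

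Other genes of these pathways passed in a few classes. Of the 15 other ligands, receptors and scavengers, 36 of 165 pairs of gene and class were tested, with 0 higher and 2 lower. The lower ones were Cxcl5, a further neutrophil attractant, in injured tubule (19.5, 24.1 and 13.2 CPM with SH045 and 34.9, 78.7 and 68.4 CPM with Vehicle, -1.83 ± 0.32, edgeR adjusted p = 0.0231) and Cxcl17, a mucosal chemokine, in collecting duct principal cells (29.6, 35.6 and 43.4 CPM against 57.8, 112 and 94.3 CPM, -1.36 ± 0.22, edgeR adjusted p = 0.000972). Both had all SH045 libraries under all Vehicle libraries. In these classes 28.1% and 24.7% of all tested genes did not overlap, in either direction. In injured tubule 2.70% of genes passed and in collecting duct principal cells 3.48%.

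The 6 proteases and partners gave 1 higher and 5 lower among 61 tested pairs. Of all pairs of gene and class, 1.27% passed as higher and 1.16% as lower. The share of all tested genes that passed was 10.8% in macrophages, 3.48% in collecting duct principal cells and 1.03% in T cells. It was 0.201% in distal convoluted tubule and 0.0648% in thick ascending limb. Cd74, the invariant chain of MHC class II and a receptor for Mif, was lower in macrophages (-0.56 ± 0.15), T cells (-1.52 ± 0.21), thick ascending limb (-1.24 ± 0.21) and distal convoluted tubule (-1.88 ± 0.29). In T cells it was 2220, 2502 and 1512 CPM against 5959, 5366 and 6687 CPM, beside the macrophage markers given above. The 8 dendritic cell markers were also present there, at 58.5, 11.2 and 44.4 CPM with SH045 and 173, 85.3 and 92.9 CPM with Vehicle. Mif was lower in macrophages (-0.43 ± 0.13), and Dpp4, the peptidase that trims Cxcl10 and Cxcl12, was higher in collecting duct principal cells (30.1, 32.5 and 41.1 CPM against 8.26, 12.7 and 11.9 CPM, 1.55 ± 0.28).

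Of the 7 genes of the interferon-gamma axis that induces Cxcl9 and Cxcl10, 1 of 66 tested pairs passed, beside 2.43% of all pairs. The pair was in macrophages, where 10.8% of all genes passed. Ifng was higher in macrophages (1.78 ± 0.52, edgeR adjusted p = 0.0422) on only 57 UMIs, at 2.98, 2.93 and 1.79 CPM against 0.894, 0.818 and 0.289 CPM. T cells, a known source of Ifng, had 145, 133 and 97.4 CPM with SH045 and 59.2, 80.8 and 72.9 CPM with Vehicle, which did not overlap and did not pass (0.81 ± 0.21, edgeR adjusted p = 0.0780). Among all genes tested in T cells, 18.7% did not overlap. T-cell markers in macrophages summed to 86.6, 51.8 and 44.4 CPM against 37.1, 27.2 and 54.1 CPM, and their part in the macrophage value was not tested. Of the 8 genes of the NF-kB axis, Nfkb1 was higher in macrophages (86.8, 67.2 and 74.4 CPM against 43.5, 47.1 and 59.0 CPM, 0.43 ± 0.13, edgeR adjusted p = 0.0472) and Nfkbia, its inhibitor, lower in collecting duct principal cells (-0.95 ± 0.20), of 54 tested pairs. In these 2 classes 10.8% and 3.48% of all genes passed, and over all pairs 2.43%.

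By the Pearson correlation of mean log2(CPM + 1) over the 11 classes, the genes most like Cxcr6 were Gimap3, Gimap7 and Cd3g (0.992, 0.991 and 0.991). Those most like Cxcl12 were Csgalnact1, Serpine2 and Adamts4 (0.948, 0.947 and 0.928), and those most like Cxcl14 were Matn2, Steap3 and Spon1 (0.945, 0.945 and 0.942). For Cxcl1 they included C3 and Tgm1 (0.925 and 0.914), and for Cxcl2 they were Wfdc18, Smpdl3b and Tlr2 (0.938, 0.924 and 0.915). Cxcl16 was followed most closely by Rnf180, Slc39a11 and Ftl1 (0.920, 0.911 and 0.908). Those of Cxcl9 included 1600010M07Rik and Nlrp1c-ps (0.985 and 0.982), those of Cxcl10 Slc16a6, Gm48146 and Helb (0.893, 0.868 and 0.857), those of Cxcr4 Ifit1, Cyth1 and 4833417C18Rik (0.910, 0.910 and 0.885), and those of Cx3cr1 Gm10521, Tctex1d4 and Gm29336 (0.982, 0.981 and 0.980). Cd3g was itself used to define the T-cell class. The points share libraries and 14336 genes were compared, so these values are descriptions.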

How the data were processed

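Dissociated kidney cells were profiled on the Singleron GEXSCOPE platform, per the labels' protocols, and the authors deposited UMI counts per gene and barcode for each library. The build is mm10, per the submitters' processing notes. The aligner, counter and annotation were not stated there. Deposited values are whole-number counts, and the lowest total of a barcode was between 2166 and 3175 UMIs by library.

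Barcodes with at least 200 genes and at most 50% mitochondrially encoded UMIs were kept. Each was given the class with the highest marker score and at least 2 detected markers, a rule chosen after seeing cell counts. Doublets were not removed, except in an alternative that drops the 5% with the highest Scrublet scores. Counts were summed per library and class with at least 20 cells in every library and tested with edgeR 4.0.16 in R 4.3.3 (TMM, filterByExpr, robust quasi-likelihood test, Benjamini-Hochberg threshold 0.05). Shares and fixed-mix levels were compared by two-sided exact permutation tests, which cannot go below 0.1 here. Leiden clusters came from scanpy 1.11.5 with the 10 genes left out. The test was checked on simulated data with 200 changed genes in each class. In macrophages it recovered 96% of 4-fold and 65% of 2-fold changes and called 18 unchanged genes. In fibroblasts it recovered 71% and 23% and called 5 unchanged genes. The most unchanged genes called in a class were 21, in distal convoluted tubule. Smaller changes, such as that of Cx3cr1, were not simulated. Alternatives were 17, among them DESeq2 1.42.0, a replicate block and leaving out each library.

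All genes chosen were named, with those of the 4 pathway lists that passed and the 3 genes most like each in level over classes, of which some are not reported here. The genes and lists were chosen with earlier results of these data known. In no class did the deviations of all 3 same-numbered pairs of libraries correlate above 0.1, so the numbers were not taken as pairs. Total counts per library give the depth, and intervals over cells were not used.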

Additional observations from a re-analysis of the deposited data

How the results depend on the processing

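The 17 pairs of gene and class or whole library followed here were those with an unadjusted p under 0.05 as reported in edgeR. That choice favours the same direction under alternatives, so the count of directions is no separate support. For whole libraries, Leiden clusters and a stricter marker rule change only class labels and repeat the reported fit. The 288 values under alternatives gave 256 with the direction and side of the threshold as reported. Of the others, 8 lost the call, all for Cx3cr1 in macrophages, 24 gained one and 0 had the opposite direction. Genes called higher in classes numbered 1 as reported, 2 with DESeq2, 4 without the filter on low counts, and 0 with a replicate block, with the length trend removed or with a common UMI minimum, and between 0 and 3 when 1 library was left out. Of all pairs of gene and class, 1.27% were higher as reported, 1.88% with DESeq2, 0.988% of a larger number without the filter, 0.868% with the block, 0.489% with the length trend removed and 0.476% with the UMI minimum. With 1 library left out, between 0.269% and 1.33% of all pairs were higher. Genes called lower in classes numbered 0 as reported, 7 without the filter, and 1 each with DESeq2, RLE size factors, a replicate block, at most 20% mitochondrially encoded UMIs or Leiden clusters, and between 0 and 2 when 1 library was left out. Of all pairs, 1.16% were lower as reported, 1.09% without the filter, 2.54% with DESeq2 and between 0.955% and 1.33% in the other 4. Between 0.356% and 1.35% of all pairs were lower with 1 library left out. In whole libraries 0 were called higher as reported and 1 with each of DESeq2, a replicate block, the highest doublet scores removed, a common UMI minimum or total-count scaling (added after seeing the data), and between 0 and 1 when 1 library was left out. 1 was called lower with DESeq2. Of all genes, 2.95% were higher as reported, 6.13% with DESeq2, 13.1% with total-count scaling and between 2.73% and 3.19% in the other 3, and 4.79% were lower with DESeq2. Between 0.472% and 2.39% of all genes were higher with 1 library left out. Pairs unlike macrophages numbered 0 as reported and between 1 and 4 when 1 library was left out. With the replicate block, Cx3cr1 in macrophages had an adjusted p of 0.0517. The causes were not tested. In fibroblasts 4 of 6338 genes passed as reported, 35 of 4290 with DESeq2, 178 of 17598 without the filter and 69 of 4219 without SH045 3. The Vehicle libraries held 22 to 29 fibroblasts each, which limits Cxcl12 and Cxcl14.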
